A study of Mus musculus with 24 samples.

Results

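Cell cycle and DNA replication genes were described here as a set of 50 named genes, found by symbol in a table of 55487 genes. All 50 were in the table, and all 50 were among the 19325 genes with at least 1 TPM (a transcript's share of all transcripts, corrected for its length) in at least 3 samples that were tested. They were read as 19 replication genes and 31 mitosis genes. RNA came from mammary glands of aged mice in 2 inducible lines, MMTV-rtTA/tet-op-Esr1 and MMTV-rtTA/tet-op-CYP19A1. In both, the transgene is under a tetracycline operator whose activator is driven by the MMTV promoter, which is active mainly in epithelium. Esr1 encodes oestrogen receptor alpha and CYP19A1 encodes aromatase, the enzyme that makes oestrogens from androgens. The 24 samples make 8 groups of 3, and each line gave 4 of them: glands taken at 18 months (the transgene induced for 6 months), and glands taken at 20 months (induced for 8 months) with no drug, with tamoxifen or with letrozole. The drugs were given over the last 2 months as implanted pellets, 25 mg of tamoxifen or 2.5 mg of letrozole released in 60 days. Tamoxifen modulates the oestrogen receptor, and letrozole inhibits aromatase. Every mouse carried an induced transgene, so no group shows the gland without one. The 20-month samples with neither drug are called untreated. Their descriptions hold a tag, PLA, that the labels do not explain. Age, length of induction and this tag change together between the 18-month and the untreated 20-month groups, so they cannot be told apart. Every comparison called "with age" carries this limit. By its title, the series compares how the 2 models respond to anti-hormonal drugs as the mice reach reproductive senescence.

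A dividing cell first licenses its origins of replication: Cdc6 and Cdt1 load the Mcm2 to Mcm7 helicase, which Cdc45 and the GINS complex then switch on, and Pcna clamps the polymerases to the new strand. Cyclin E and E2f1 act at the entry to S phase, whereas Cdk1 with cyclins A and B starts mitosis, where motor proteins, kinetochore proteins and checkpoint kinases separate the chromosomes. Genes of the S phase programme are known targets of E2F factors, and many mitotic genes are known to be controlled through a cell cycle homology region (CHR) and neighbouring CCAAT boxes. In the mammary gland these genes are used as markers of dividing cells, whose number is known to follow oestrogen and progesterone.

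The promoters of the 2 classes differed in the motifs they held. RefSeq promoter windows of the build GRCm38.p6 (250 bases before to 50 bases after an annotated start) were found for 41 of the 50 genes. The table of windows has none for Ccne2, Mcm4, Gins2, Aurkb, Kif20a, Pbk, Ccna2, Foxm1 and Tpx2. The windows were searched on both strands for E2F sites (TTTCCCGC, TTTGGCGC, TTTGCCGC or TTTCGCGC), the CHR (TTTGAA) and the CCAAT box (CCAAT). An E2F site stood in 7 of 16 replication genes (43.8%) and 1 of 25 mitosis genes (4.0%), against 2.6% of the 27025 genes with a window. The order was the opposite for the CHR, found in 17 of 25 mitosis genes (68.0%), 2 of 16 replication genes (12.5%) and 20.2% of all genes. A CHR together with a CCAAT box was found in 16 of 25 mitosis genes (64.0%), 2 of 16 replication genes (12.5%) and 7.97% of all genes. A CCAAT box, with or without a CHR, was in 20 of 25 mitosis genes, 10 of 16 replication genes (62.5%) and 41.1% of all genes.

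The 6 genes on which the later results turn are shown by the bases before their outermost annotated start, 5′ to 3′ on the strand of the gene, with matches to these motifs in capitals. Mcm5 (chr8:75109349-75109467) and Mcm6 (chr1:128359706-128359825), 2 subunits of the replicative helicase, hold E2F sites. Mki67 (chr7:135716451-135716579), the gene of the Ki-67 protein that coats mitotic chromosomes, Cdk1 (chr10:69352913-69353052), the main mitotic kinase, and Top2a (chr11:99024200-99024299), which untangles sister chromosomes, hold the CHR and CCAAT boxes, and Cdk1 also has an E2F site. Birc5 (chr11:117849077-117849236), a member of the chromosomal passenger complex, is shown because it moved with them although these letters hold none of the motifs. Mcm5 and Birc5 lie on the plus strand and the others on the minus strand. The motif matches are a description of these letters and were not tested as binding sites.
Mcm5: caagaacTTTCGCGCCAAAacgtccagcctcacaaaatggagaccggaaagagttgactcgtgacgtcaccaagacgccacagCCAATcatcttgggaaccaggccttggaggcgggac
Mcm6: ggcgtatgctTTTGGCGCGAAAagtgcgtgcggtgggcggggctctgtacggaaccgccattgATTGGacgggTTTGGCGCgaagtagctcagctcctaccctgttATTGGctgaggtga
Mki67: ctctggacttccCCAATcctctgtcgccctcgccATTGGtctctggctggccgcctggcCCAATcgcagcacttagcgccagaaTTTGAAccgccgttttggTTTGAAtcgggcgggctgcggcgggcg
Cdk1: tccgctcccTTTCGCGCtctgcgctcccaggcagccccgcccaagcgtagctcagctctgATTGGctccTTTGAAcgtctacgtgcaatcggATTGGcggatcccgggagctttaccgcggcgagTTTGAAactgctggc
Top2a: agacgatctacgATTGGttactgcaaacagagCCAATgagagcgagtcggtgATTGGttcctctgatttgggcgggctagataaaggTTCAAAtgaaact
Birc5: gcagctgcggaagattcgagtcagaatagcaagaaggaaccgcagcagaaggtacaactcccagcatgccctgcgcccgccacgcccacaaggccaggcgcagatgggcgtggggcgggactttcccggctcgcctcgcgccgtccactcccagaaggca

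Marker genes of several tissues were read in each sample. The 8 luminal epithelium markers were all above 0 in every library and summed to between 60.9 and 690 TPM, so the labelled tissue was present. The 8 skeletal muscle markers summed to between 50.1 and 25178 TPM, and the 8 T cell markers, none of them at 0 in any library, to between 6.50 and 52.0 TPM. Ribosomal RNA genes took 17.4% of the TPM in replicate 2 of the untreated 20-month Esr1 group and at most 2.02% elsewhere. Depth cannot be read from TPM and is unknown here, and between 14410 and 17684 genes reached 1 TPM in a library. The lines are named by their labels: the mean of Esr1 was 14.5 ± 2.64 TPM (SD) over the 12 samples labelled Esr1 and 15.1 ± 2.38 TPM over the 12 labelled CYP19A1, and mouse Cyp19a1 was at 0.27 TPM or less in every sample, so these values do not show the transgenes.

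The 50 genes were high in 3 of the 8 groups and low in the other five. Summed over the 50, they gave 260 ± 96.0 TPM (SD, n = 3) at 18 months in the Esr1 line, 262 ± 9.46 TPM in the untreated Esr1 line at 20 months and 285 ± 119 TPM in the CYP19A1 line at 18 months. The sum was 128 ± 20.2 TPM in the untreated CYP19A1 line at 20 months, 136 ± 37.7 and 111 ± 8.57 TPM in Esr1 glands under tamoxifen and letrozole, and 132 ± 14.7 and 104 ± 21.4 TPM in CYP19A1 glands under the same drugs. Every library of the 3 high groups but one lay above every library of the 5 low groups: the lowest of them, CYP19A1 18-month replicate 3 at 174 TPM, was below Esr1 tamoxifen replicate 2 at 179 TPM. In bulk tissue such a level cannot tell fewer dividing cells from less RNA per cell.

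**Figure D1:**
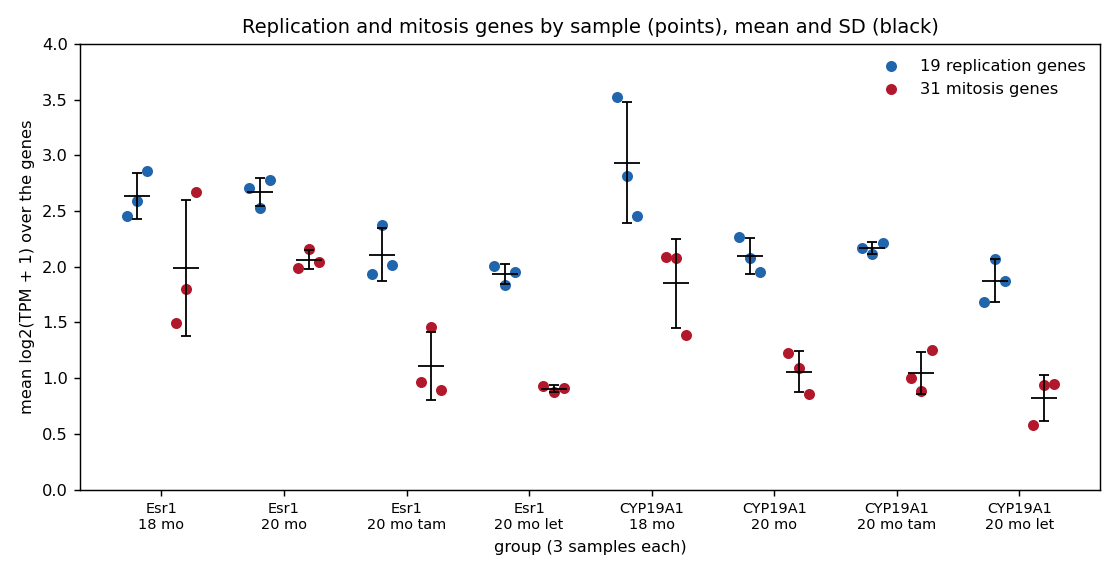
Mean log2(TPM + 1) of the 19 replication genes (blue) and the 31 mitosis genes (red) in each of the 24 samples, by group, with the group mean and SD in black; tam is tamoxifen and let is letrozole. Both classes are high in the Esr1 line at 18 and 20 months and in the CYP19A1 line at 18 months, and the mitosis genes are the lower of the 2 classes in every sample.

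The mitosis genes spanned a wider range than the replication genes. Over the 8 group means, the ratio of the highest to the lowest mean TPM had a median of 5.45 for the mitosis genes (1.51 to 13.5) and 2.91 for the replication genes (1.38 to 8.66). Bub1b, a spindle checkpoint kinase, had the widest ratio, and Ccne2, cyclin E2, the narrowest. Mitosis genes were also rarer transcripts, with a median level of 1.68 TPM against 3.86 TPM. Only 4 of the 31 mitosis genes, against 13 of the 19 replication genes, reached 1 TPM in all 24 libraries. Of the 50, 13 reached 1 TPM in fewer than 12 libraries, and Cdc6 (5 libraries) was the single gene that met the filter only through its richest group, CYP19A1 at 18 months, so its differences against that group were favoured by the filter. Plk1, Melk, Bub1, Ttk and Kif2c reached 1 TPM only in libraries of the 3 groups in which the 50 genes were high. The filter therefore also favoured their calls as lower against those groups. The group with the highest mean was CYP19A1 at 18 months for 17 of the 19 replication genes. For the mitosis genes it was Esr1 at 18 months for 16, untreated Esr1 at 20 months for 10 and CYP19A1 at 18 months for 5 of 31.

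Many of the highest values came from 2 libraries. Esr1 18-month replicate 3 was the highest of the 24 libraries for 28 of the 31 mitosis genes and for 0 of the 19 replication genes. CYP19A1 18-month replicate 1 was the highest for 17 of the 19 replication genes and for 3 mitosis genes. The mitosis genes made up 53.2% of the summed TPM of the 50 genes in the former library and 28.3% in the latter. CYP19A1 letrozole replicate 1 was the lowest library for 31 of the 50 genes, 10 replication and 21 mitosis genes. That library also had the lowest epithelium sum, 60.9 TPM, and the fewest genes with at least 1 TPM, 14410. The share of mitosis genes was 43.4 ± 4.26% (SD, n = 3) in untreated Esr1 glands at 20 months and 42.3 ± 9.66% at 18 months. It was 33.8 ± 6.81% in CYP19A1 glands at 18 months and had group means between 26.4% and 31.03% in the other five groups.

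**Figure D2:**
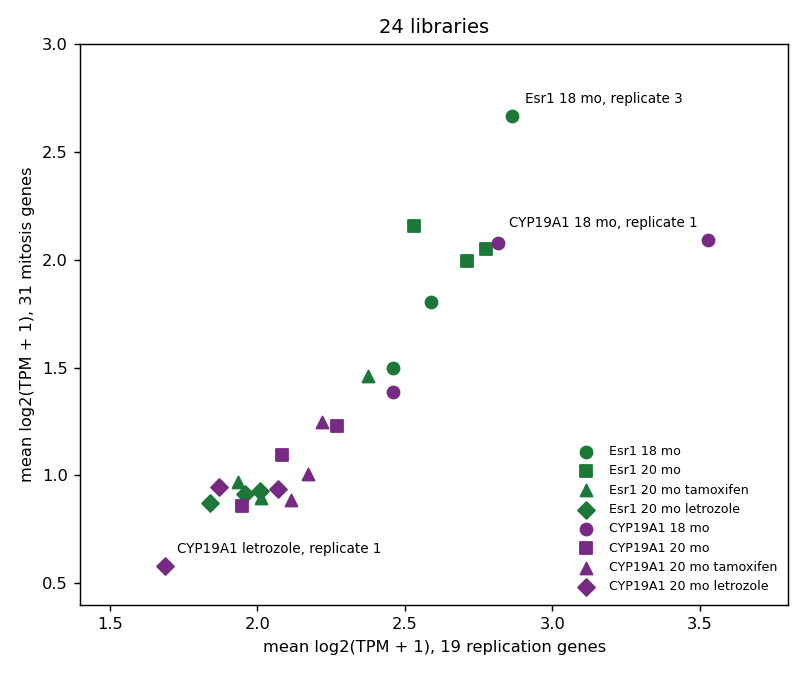
Mean log2(TPM + 1) of the 31 mitosis genes against that of the 19 replication genes, 1 point per library, coloured by line and shaped by condition. The points run from CYP19A1 letrozole replicate 1 at the lower left towards the 18-month libraries and the untreated 20-month Esr1 libraries at the upper right. There Esr1 18-month replicate 3 is highest for mitosis (2.67) and CYP19A1 18-month replicate 1 is highest for replication (3.53). The untreated 20-month CYP19A1 libraries lie among the drug-treated ones at the lower left.

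The 6 genes of the next paragraphs show the range of patterns by sample. Mki67 stood at 4.69, 7.26 and 19.7 TPM in Esr1 glands at 18 months, 10.97, 12.7 and 10.3 TPM at 20 months untreated, 1.52, 3.98 and 1.22 TPM under tamoxifen and 1.74, 1.45 and 1.70 TPM under letrozole. In CYP19A1 glands it stood at 9.06, 9.53 and 3.61 TPM at 18 months, 2.62, 2.55 and 1.4 TPM at 20 months untreated, 1.85, 1.56 and 3.26 TPM under tamoxifen and 0.65, 1.73 and 1.54 TPM under letrozole. The untreated 20-month Esr1 samples lay above every other 20-month sample of either line without overlap. Top2a followed the same order, with 5.44, 7.22 and 16.2 TPM, then 10.4, 9.09 and 9.37, then 2.05, 5.11 and 1.3, then 1.97, 1.97 and 2.05 TPM in the 4 Esr1 groups taken as for Mki67. Its CYP19A1 values were 13.0, 9.35 and 4.56 TPM at 18 months, 3.48, 3.30 and 1.53 untreated at 20 months, 2.41, 2.10 and 4.33 under tamoxifen and 0.73, 1.63 and 1.76 under letrozole. At 20 months the untreated Esr1 samples were again above all the rest.

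Cdk1 measured 3.69, 5.01 and 8.45 TPM in Esr1 glands at 18 months and 4.36, 5.49 and 5.17 TPM at 20 months, but 0.80, 2.07 and 0.63 TPM under tamoxifen and 0.53, 0.95 and 0.91 TPM under letrozole. In CYP19A1 glands it measured 7.85, 5.86 and 2.68 TPM at 18 months, 2.50, 1.79 and 1.5 TPM at 20 months, 1.5, 1.14 and 1.98 TPM under tamoxifen and 0.69, 0.68 and 1.67 TPM under letrozole. No treated Esr1 sample reached an untreated one, and in the CYP19A1 line no 20-month sample reached an 18-month one. Mcm5 measured 5.09, 5.48 and 8.79 TPM and then 6.69, 8.37 and 9.44 TPM in untreated Esr1 glands at 18 and 20 months, 1.83, 5.17 and 1.71 TPM under tamoxifen and 1.87, 1.98 and 2.12 TPM under letrozole. The CYP19A1 values of Mcm5 were 22.9, 10.5 and 5.41 TPM at 18 months, 3.29, 3.71 and 2.45 TPM at 20 months, 2.43, 2.84 and 2.85 TPM under tamoxifen and 1.39, 2.49 and 1.82 TPM under letrozole. A single 18-month CYP19A1 sample carried more than 2 times the Mcm5 of the next highest library.

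Pcna, the sliding clamp, was the most abundant of the 50 by mean TPM, a measure already divided by transcript length. Its Esr1 values were 29.4, 31.9 and 34.6 TPM at 18 months, 37.4, 27.1 and 29.7 TPM at 20 months, 16.7, 22.9 and 20.5 TPM under tamoxifen and 21.2, 19.3 and 20.6 TPM under letrozole. Its CYP19A1 values were 54.8, 30.3 and 29.4 TPM at 18 months, 21.2, 20.3 and 17.1 TPM at 20 months, 24.7, 22.2 and 24.4 TPM under tamoxifen and 18.0, 23.6 and 17.0 TPM under letrozole. The same 3 groups were high, by a smaller factor than for Mki67. Ccne1, cyclin E1, had no such order: its Esr1 values were 1.36, 1.03 and 1.56 TPM, then 2.26, 0.76 and 1.16, then 1.27, 1.59 and 0.97, then 1.02, 0.77 and 1.13 TPM in the 4 groups. Its CYP19A1 values were 1.42, 1.29 and 1.22 TPM, then 1.38, 0.72 and 0.90, then 1.56, 1.06 and 1.08, then 1.03, 0.93 and 0.21 TPM. The groups of Ccne1 overlapped in all 8 comparisons between single groups shown in the plot of changes.

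**Figure D3:**
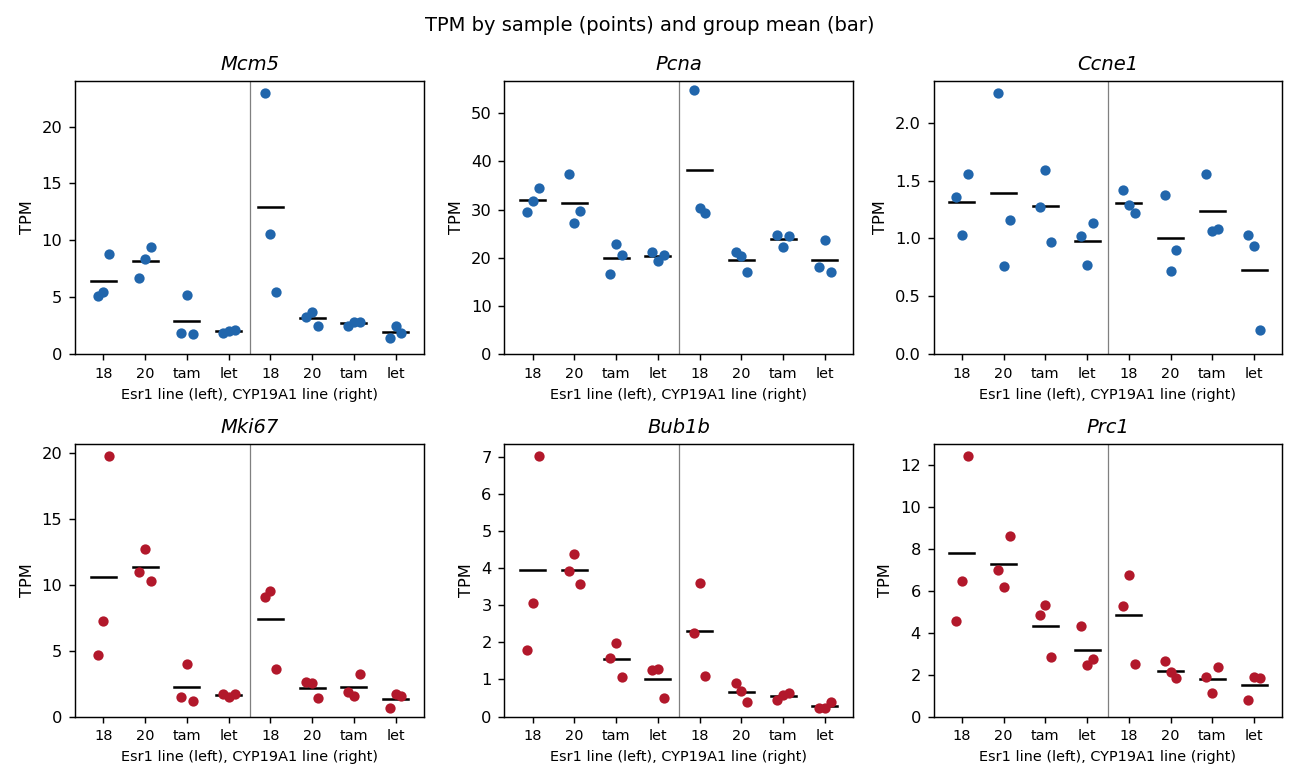
TPM of 3 replication genes (blue) and 3 mitosis genes (red) in each sample, with group means as bars; the axes start at 0 and differ between panels. Mcm5 and Pcna peak in CYP19A1 18-month replicate 1, Mki67, Bub1b and Prc1 in Esr1 18-month replicate 3, and Ccne1 shows no shared order of the groups.

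The first question was whether the lines differed at 18 months. They barely did for these genes: 1 of the 50, the licensing factor Cdc6, was higher in CYP19A1 glands (0.895% of all genes tested were called higher) and 0 were lower (0.461% of all genes). Cdc6 measured 0.74, 0.86 and 1.01 TPM in the Esr1 samples and 2.58, 1.85 and 1.49 TPM in the CYP19A1 samples, so the groups did not overlap. Of all genes tested 8.86% lay wholly higher in the CYP19A1 samples. Cdc6 met the filter on low values only through these CYP19A1 samples, which favoured this call. The difference was 0.66 ± 0.16 (standard error of the fit, as for all later differences, on the log2(TPM + 1) scale; adjusted p = 0.048), and the call was lost in 9 of 14 alternative settings (adjusted p up to 0.32). Of the 19 replication genes 18 had an estimate above 0, with a median of 0.25, and of the 31 mitosis genes 24 had an estimate below 0, with a median of -0.12. The median over all genes was 0.06.

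Between 18 and 20 months genes of both classes fell in the CYP19A1 line. Of the 50 genes 28 fell, 14 of the 19 replication genes and 14 of the 31 mitosis genes, where 6.45% of all genes did, and 0 rose, where 3.01% of all genes did. The median difference was -0.88 for the replication genes and -0.82 for the mitosis genes, against -0.23 over all genes. The 20-month samples lay wholly below the 18-month samples for 39 of the 50, and for 33.8% of all genes tested. All 10 genes of origin licensing and the helicase (Cdc6, Cdt1, Mcm2 to Mcm7, Cdc45 and Gins2) fell, with a median of -0.92, as did both Pcna and Uhrf1, which recruits maintenance DNA methylation to the fork. Of the nucleotide supply genes, Rrm2 and Tyms fell, and Rrm1 (-0.41) and Tk1 (-0.55) did not pass. None of Ccne1, Ccne2 and E2f1 passed, at -0.22, 0.02 and -0.55.

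Cdc6 measured 2.58, 1.85 and 1.49 TPM at 18 months and 0.52, 0.59 and 0.30 TPM at 20 months. All 20-month samples were below all 18-month samples, with a difference of -1.01 ± 0.16 (adjusted p = 0.0097). Cdc6 met the filter on low values only through this 18-month group, so the filter favoured its call and its place in the counts above. Uhrf1 measured 14.8, 6.14 and 2.67 TPM and then 2.63, 1.3 and 1.15 TPM, groups that came close but did not overlap (-1.51 ± 0.33, adjusted p = 0.015). Cdt1, which loads the helicase with Cdc6, measured 4.35, 2.38 and 2.67 TPM and then 1.64, 1.04 and 0.75 TPM, without overlap (-0.94 ± 0.20, adjusted p = 0.015). Pcna differed by -0.88 ± 0.19 (adjusted p = 0.015) and Mcm5 by -1.56 ± 0.35 (adjusted p = 0.016).

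Among the mitosis genes the smallest p belonged to Birc5, at 3.86, 3.5 and 1.82 TPM and then 1.19, 0.55 and 0.52 TPM (-1.19 ± 0.28, adjusted p = 0.019). Mybl2, a transcription factor of the late cell cycle, went from 2.97, 2.30 and 0.91 TPM to 0.69, 0.55 and 0.33 TPM (-0.95 ± 0.23, adjusted p = 0.022). Plk1, a kinase of mitotic entry and cytokinesis, went from 1.91, 1.82 and 1.03 TPM to 0.45, 0.41 and 0.32 TPM (-0.88 ± 0.22, adjusted p = 0.022). For each of Birc5, Mybl2 and Plk1, replicate 3 was the lowest 18-month sample and still exceeded every 20-month sample. Melk, a kinase abundant in dividing cells, went from 1.77, 1.63 and 0.51 TPM to 0.22, 0.19 and 0.17 TPM (-0.90 ± 0.23, adjusted p = 0.025). Mki67, Top2a and Cdk1 differed by -1.33 ± 0.40, -1.35 ± 0.39 and -1.06 ± 0.30 (adjusted p = 0.043, 0.036 and 0.035).

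Other tissue genes moved between the same groups. The T cell sum was 23.7 to 52.0 TPM at 18 months and 7.43 to 14.1 TPM at 20 months, with 6 of 8 markers lower, and the muscle sum was 50.1 to 5381 TPM and 14939 to 25178 TPM, with 2 of 8 markers higher. The epithelium sum was 410 to 667 TPM and 310 to 440 TPM, with 0 of 8 markers called. Their part in the result was not tested, but with a T and B cell score as a covariate 2 of the 50 genes passed in place of 28. The count was also 0 without 20-month replicate 3, 1 without 18-month replicate 1, 7 without 20-month replicate 2, 8 without 18-month replicate 2, 15 with median-ratio scaling and 3 when only these 6 samples were fitted, whereas the estimate was below 0 for 48 of the 50. Median-ratio scaling moved the median of all genes from -0.23 to -0.02 and that of the 50 genes from -0.87 to -0.65. For these settings the share of all genes that passed is not given, so a lower count is not read as particular to the 50.

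In the Esr1 line the same interval gave 0 genes past the threshold in limma, where 0.00517% of all genes passed, and 1 of the 50 had an unadjusted p under 0.05. That gene was Gins2, a GINS subunit (-0.45 ± 0.20, adjusted p = 0.73). The medians were 0.03 for the replication genes and 0.10 for the mitosis genes, against -0.14 over all genes. The wide spread at 18 months, from 1.5 to 2.67 in the mean log2 level of the mitosis genes, limits this comparison. The difference between the lines in the change with age did not pass for any of the 50 genes in limma, where 0.00517% of all genes passed. It had an unadjusted p under 0.05 for 33 of them, and the smallest adjusted p was 0.17, for Cdc6 (-1.16 ± 0.23), which the filter favoured. With muscle and epithelium scores as covariates 11 genes passed, and 5 passed without CYP19A1 18-month replicate 3, the lowest of its group. The share of all genes that passed in these settings is not given, so these counts are not read as particular to the 50. In the fit without covariates the lines were not shown to differ in this change.

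**Figure D4:**
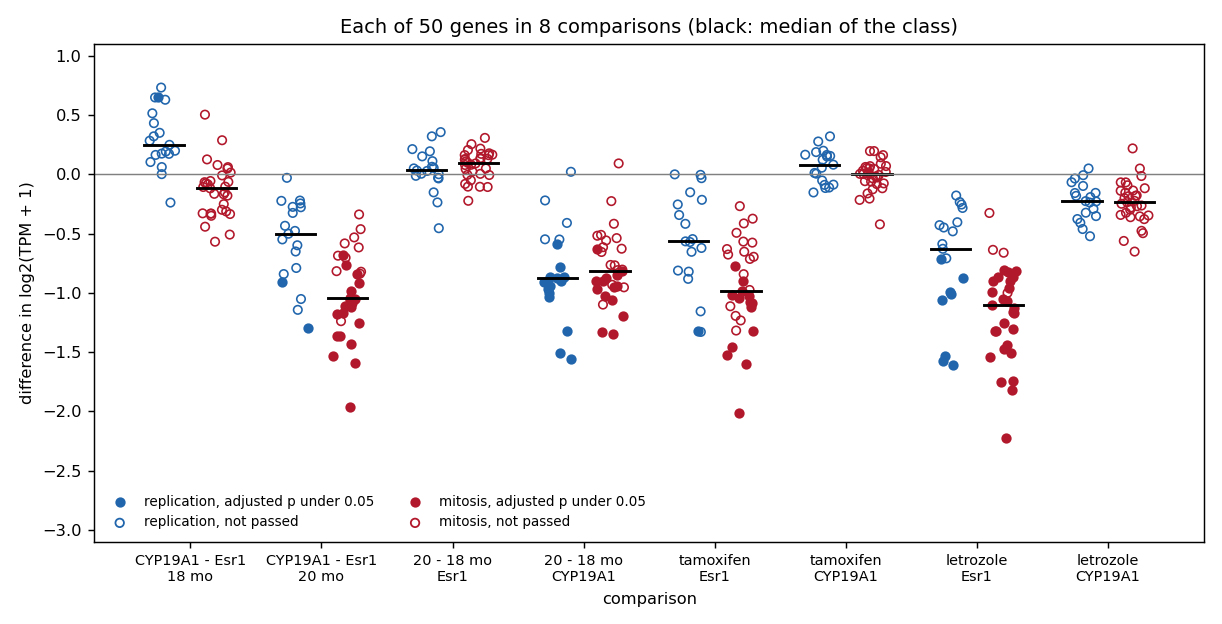
Difference in log2(TPM + 1) of each of the 50 genes in 8 comparisons, replication genes in blue and mitosis genes in red, filled where the limma adjusted p was under 0.05, with the class median as a black line. In 3 of the 4 comparisons with many filled points the mitosis genes lie lower than the replication genes, and in the CYP19A1 line with age the 2 medians are -0.82 and -0.88.

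At 20 months without treatment the 50 genes were lower in the CYP19A1 line than in the Esr1 line. Of the 50, 22 were lower (3.16% of all genes were) and 0 higher (2.12%), 20 mitosis genes and 2 replication genes. The estimate was below 0 for all 50, and the CYP19A1 samples lay wholly below the Esr1 samples for 42, against 13% of all genes tested. The median was -1.05 for the mitosis genes, -0.50 for the replication genes and 0.02 over all genes. By role, 7 of 10 mitotic cyclins and kinases, 6 of 8 spindle and cytokinesis genes, 3 of 5 checkpoint and anaphase-promoting complex genes, 1 of 3 centromere and kinetochore genes and all of Mki67, Top2a and Birc5 were lower. None of the 10 licensing and helicase genes passed, with a median of -0.53.

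Bub1b measured 3.92, 4.37 and 3.56 TPM in Esr1 samples and 0.90, 0.69 and 0.38 TPM in CYP19A1 samples. The lowest Esr1 sample was above the highest CYP19A1 sample by a wide margin, and the difference was -1.59 ± 0.30 (adjusted p = 0.0036). Melk measured 1.24, 1.65 and 2.24 TPM against 0.22, 0.19 and 0.17 TPM, without overlap (-1.17 ± 0.23, adjusted p = 0.0060). Birc5 measured 3.64, 4.51 and 2.95 TPM against 1.19, 0.55 and 0.52 TPM (-1.43 ± 0.28, adjusted p = 0.0061). Nusap1, which binds spindle microtubules, measured 3.55, 3.36 and 2.89 TPM against 0.96, 1.07 and 0.87 TPM (-1.12 ± 0.22, adjusted p = 0.0063). For these 4 genes the lines were apart in every sample. Mki67 differed by -1.97 ± 0.40, Top2a by -1.54 ± 0.39 and Cdk1 by -1.05 ± 0.30 (adjusted p = 0.0076, 0.026 and 0.049).

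The 2 replication genes were Uhrf1 and Rrm2, the small subunit of ribonucleotide reductase. Uhrf1 measured 4.79, 5.91 and 5.70 TPM in Esr1 samples and 2.63, 1.3 and 1.15 TPM in CYP19A1 samples (-1.3 ± 0.33, adjusted p = 0.027). Rrm2 measured 2.73, 2.60 and 2.93 TPM against 1.13, 1.15 and 0.73 TPM (-0.91 ± 0.26, adjusted p = 0.047). The samples of the 2 lines did not overlap for either. Mcm5 (-1.14 ± 0.35, adjusted p = 0.061) and Pcna (-0.65 ± 0.19, adjusted p = 0.054) did not overlap either but did not pass.

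T cell genes were lower between the same groups, in 5 of 8 markers, with sums of 27.5 to 30.9 TPM in Esr1 samples and 7.43 to 14.1 TPM in CYP19A1 samples. The epithelium sums were 424 to 525 TPM and 310 to 440 TPM, and 0 of the 8 markers passed. The muscle sums were 4558 to 15003 TPM and 14939 to 25178 TPM, which overlapped, and 0 of the 8 markers passed. The part of the T cells was not tested, and 5 of the 50 genes passed with a T and B cell score as a covariate. The count was 4 without CYP19A1 replicate 3, 7 without Esr1 replicate 2, 10 without Esr1 replicate 3 or CYP19A1 replicate 1, 11 without CYP19A1 replicate 2 and 14 with no filter on low values. The share of all genes that passed in these settings is not given, so a lower count is not read as particular to the 50. Bub1b, Melk, Birc5 and Nusap1 passed in all 14 alternative settings (adjusted p up to 0.042).

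Under tamoxifen, Esr1 glands had lower levels of mitosis genes. Of the 50 genes 15 fell (0.838% of all genes did), 14 mitosis genes and 1 replication gene, and 0 rose (0.709% of all genes did). All 50 estimates were below 0, with medians of -0.98 for the mitosis genes and -0.57 for the replication genes, against 0.05 over all genes, and 39 of the 50 had treated samples wholly below the untreated ones, as did 6.98% of all genes tested. The 15 were Cdk1, Ccna2, Melk, Pbk, Bub1, Ttk, Cenpf, Kif11, Kif2c, Tpx2, Nusap1, Mki67, Top2a, Birc5 and Uhrf1. They take in kinases, the checkpoint genes Bub1 and Ttk, the kinetochore protein Cenpf and the motor proteins Kif11 and Kif2c.

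Cdk1, with the sample values given above, differed by -1.52 ± 0.30 and Mki67 by -2.02 ± 0.40 (adjusted p = 0.021 for both). Ccna2, cyclin A2, went from 5.81, 5.78 and 4.70 TPM to 1.42, 1.91 and 0.80 TPM (-1.46 ± 0.30, adjusted p = 0.021). Melk went from 1.24, 1.65 and 2.24 TPM to 0.27, 0.41 and 0.12 TPM (-1.09 ± 0.23, adjusted p = 0.027). Neither gene had a treated sample near an untreated one, and tamoxifen replicate 2 was the highest treated sample of both. Uhrf1 went from 4.79, 5.91 and 5.70 TPM to 1.28, 2.23 and 1.33 TPM (-1.32 ± 0.33, adjusted p = 0.049), and Top2a differed by -1.60 ± 0.39 (adjusted p = 0.044). Mcm5 (-1.33 ± 0.35, adjusted p = 0.055) and Pcna (-0.62 ± 0.19, adjusted p = 0.097) did not pass, nor did any licensing or helicase gene.

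The tamoxifen count rested on single libraries. It was 0 without untreated replicate 2, the library in which ribosomal RNA genes took 17.4% of the TPM, 0 without tamoxifen replicate 3, 1 without tamoxifen replicate 1 and 7 without untreated replicate 3. It was 33 with median-ratio scaling, 27 with TPM recomputed without genes above 1000 TPM, 26 with muscle and epithelium scores as covariates, 8 with no filter on low values and 1 when only these 6 samples were fitted. These counts are given without the share of all genes that passed in the same setting. All 50 estimates were below 0 under both scalings. The T cell sums were 27.5 to 30.9 TPM untreated and 9.09 to 15.1 TPM treated, with 1 of 8 markers lower, and the epithelium sums 424 to 525 and 235 to 541 TPM, with 0 of 8 called. The muscle sums were 4558 to 15003 TPM untreated and 16649 to 23399 TPM treated, without overlap, with 0 of 8 markers called. The part of these tissues in the result was not tested.

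Under letrozole, Esr1 glands had the largest number of called genes among the 50. Of them 35 fell (5.81% of all genes did), 27 of the 31 mitosis genes and 8 of the 19 replication genes, and 0 rose (2.85%). The medians were -1.1 and -0.63, against -0.01 over all genes, and 45 of the 50 had treated samples wholly below the untreated ones, as did 16.5% of all genes tested. By role, 9 of 10 mitotic cyclins and kinases, 7 of 8 spindle and cytokinesis genes, 4 of 5 checkpoint and anaphase-promoting complex genes, all 3 centromere and kinetochore genes (Cenpa, Cenpe and Cenpf) and 5 of 10 licensing and helicase genes fell. All 15 genes that fell under tamoxifen also fell under letrozole, in comparisons that share the 3 untreated samples. Of the 29 fallen genes with a promoter window 51.7% held a CHR and 20.7% an E2F site, against 33.3% and 16.7% of the 12 others. Most fallen genes were mitosis genes, and the CHR was in 68.0% of mitosis genes and 12.5% of replication genes with a window. The motif contrast therefore cannot be told apart from class.

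Ccna2 went from 5.81, 5.78 and 4.70 TPM to 1.01, 0.77 and 0.92 TPM, with a gap between the groups that exceeded the spread within either (-1.76 ± 0.30, adjusted p = 0.0031). Cdk1 differed by -1.75 ± 0.30 (adjusted p = 0.0037) and Mki67 by -2.22 ± 0.40 (adjusted p = 0.0045), a fall from a mean of 11.3 TPM to 1.63 TPM. Birc5 went from 3.64, 4.51 and 2.95 TPM to 0.52, 0.63 and 0.66 TPM (-1.54 ± 0.28, adjusted p = 0.0046). Every treated sample of these genes was below every untreated sample. Among the replication genes, Uhrf1 went from 4.79, 5.91 and 5.70 TPM to 1.29, 1.14 and 1.07 TPM (-1.57 ± 0.33, adjusted p = 0.0087). Mcm6, a helicase subunit, went from 15.7, 16.8 and 19.3 TPM to 6.80, 3.46 and 6.09 TPM (-1.54 ± 0.32, adjusted p = 0.0088). Mcm5 differed by -1.61 ± 0.35 (adjusted p = 0.010). Rrm2 went from 2.73, 2.60 and 2.93 TPM to 0.76, 1.07 and 0.60 TPM (-1.06 ± 0.26, adjusted p = 0.018). Uhrf1, Mcm6, Mcm5 and Rrm2 too were apart in every sample, and Pcna (-0.59 ± 0.19, adjusted p = 0.062) was apart without passing. The groups overlapped for the replication genes Tk1, Ccne1 and Ccne2.

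Epithelium markers moved with these genes. The epithelium sum was 424 to 525 TPM in untreated and 122 to 181 TPM in letrozole samples, with 6 of 8 markers lower, the T cell sum was 27.5 to 30.9 and 7.52 to 16.6 TPM, with 5 of 8 lower, and none of these markers was at 0. The muscle sum was 4558 to 15003 TPM untreated and 21173 to 23426 TPM under letrozole, without overlap, with 0 of 8 markers called. With muscle and epithelium scores as covariates 0 of the 50 genes passed in limma, with a median of -0.62, and with a T and B cell score 20 passed. How much of the result follows from the tissue sampled was not tested further. The count was 13 without letrozole replicate 2, 22 without untreated replicate 2 and 23 without letrozole replicate 1 or 3. Without the share of all genes in these settings, with covariates or samples left out, a lower count is not read as particular to the 50.

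In the CYP19A1 line neither drug changed a gene of the 50 beyond the threshold. Under tamoxifen 0 passed in limma (0.16% of all genes did), 0 had an unadjusted p under 0.05, and the median was 0.01. Under letrozole 0 passed (0.0207% of all genes did) and 0 had an unadjusted p under 0.05, but 47 of the 50 estimates were below 0, with a median of -0.23 against -0.10 over all genes. The epithelium sums were 310 to 440 TPM untreated and 60.9 to 288 TPM under letrozole, without overlap, with a median difference of -1.17 over the 8 markers and 0 of 8 called, and their part in the letrozole estimates was not tested. Untreated CYP19A1 samples at 20 months, which are other samples of the same age, had a mean log2 level of 1.06 ± 0.19 (SD, n = 3) over the mitosis genes, against 1.05 ± 0.19 under tamoxifen and 0.82 ± 0.21 under letrozole. The difference between the lines in the drug effect passed for 0 of the 50 genes in limma for either drug, where 0% of all genes passed. Its unadjusted p was under 0.05 for 31 genes for tamoxifen (smallest adjusted p = 0.28, for Kif2c and Melk) and for 28 genes for letrozole (smallest adjusted p = 0.27, for Ccna2). A difference in response between the lines was not shown in this fit, whereas 12 genes passed for tamoxifen and 2 for letrozole with muscle and epithelium scores as covariates, and 2 for letrozole when only the compared groups were fitted. For these settings the share of all genes that passed is not given, so the counts are not read as particular to the 50.

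The drugs were not told apart by these genes. Between tamoxifen and letrozole, 0 of the 50 passed in limma in the Esr1 line (0.129% of all genes did) and 0 in the CYP19A1 line (0.248%), with 1 and 3 genes at an unadjusted p under 0.05. The estimate was higher under tamoxifen for 43 of 50 in the Esr1 line, with a median of 0.21, and for 46 of 50 in the CYP19A1 line, with a median of 0.26, against 0.05 and 0.16 over all genes. Between the lines, 0 of the 50 passed in limma under tamoxifen (1.01% of all genes did) and 0 under letrozole (0.906%), with 2 and 1 at an unadjusted p under 0.05. The 2 under tamoxifen were Prc1 (-0.93 ± 0.32) and Bub1b (-0.69 ± 0.30), whose groups did not overlap. Under tamoxifen 2 of the 50 lay wholly lower in the CYP19A1 line (7.41% of all genes tested did) and 2 wholly higher (10.3%). Under letrozole 4 lay wholly lower (13.6%) and 0 wholly higher (3.95%).

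Averaged over the 4 conditions, 3 of the 50 genes were lower in the CYP19A1 line (3.31% of all genes were) and 0 higher (3.96%): Bub1b (-0.85 ± 0.15, adjusted p = 0.00071), Prc1 (-0.90 ± 0.16, adjusted p = 0.00081) and Nusap1 (-0.48 ± 0.11, adjusted p = 0.0082). The count was near the share of all genes, so it is not read as a result about the set. The 3 genes are described singly. Prc1 bundles the microtubules of the central spindle. Bub1b and Nusap1 both lie on chromosome 2, at 118598202 to 118641592 and 119618298 to 119650165, and Prc1 on chromosome 7 at 80294445 to 80316259 (RefSeq, GRCm38.p6). Bub1, Pcna, Tpx2, E2f1, Mybl2, Ube2c and Aurka of the 50 lie on chromosome 2 too. The 3 calls held in all 31 alternative settings (adjusted p up to 0.0073, 0.0098 and 0.045), whereas the number of called genes was 12 without Esr1 18-month replicate 1, 5 without CYP19A1 18-month replicate 1, 8 with median-ratio scaling and 9 with TPM recomputed without genes above 1000 TPM. The share of all genes that passed in those settings is not given. Of the 31 mitosis genes all had an estimate below 0, with a median of -0.30, whereas the replication genes had a median of -0.06 and 0 calls.

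Bub1b in Esr1 samples was 1.79, 3.05 and 7.01 TPM at 18 months, 3.92, 4.37 and 3.56 TPM untreated at 20 months, 1.57, 1.99 and 1.06 TPM under tamoxifen and 1.25, 1.27 and 0.51 TPM under letrozole. In CYP19A1 samples it was 2.26, 3.59 and 1.1 TPM, 0.90, 0.69 and 0.38 TPM, 0.45, 0.57 and 0.64 TPM, and 0.24, 0.24 and 0.40 TPM. The lines overlapped at 18 months and were apart in each 20-month condition. Of all genes tested 13%, 7.41% and 13.6% lay wholly lower in the CYP19A1 line untreated at 20 months, under tamoxifen and under letrozole. Prc1 in Esr1 samples was 4.55, 6.48 and 12.5 TPM, 6.98, 6.21 and 8.61 TPM, 4.83, 5.35 and 2.84 TPM, and 4.32, 2.45 and 2.76 TPM. In CYP19A1 samples Prc1 was 5.28, 6.74 and 2.52 TPM, 2.65, 2.11 and 1.83 TPM, 1.87, 1.12 and 2.37 TPM, and 0.77, 1.90 and 1.85 TPM. It too overlapped only at 18 months. Nusap1, whose Esr1 values were 1.96, 2.65 and 5.50 TPM at 18 months, 3.55, 3.36 and 2.89 TPM untreated, 0.91, 1.39 and 1.00 TPM under tamoxifen and 1.17, 0.88 and 0.91 TPM under letrozole, had CYP19A1 values of 2.68, 2.49 and 1.18 TPM, 0.96, 1.07 and 0.87 TPM, 0.99, 0.79 and 1.1 TPM, and 0.45, 0.68 and 0.78 TPM. Its lines overlapped at 18 months and under tamoxifen.

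Bub1b and Prc1 were low in the CYP19A1 line relative to the other mitosis genes of the same library. Both were picked by their line differences in these same samples. The relative values therefore restate those differences in part and are not further support. On the log2(TPM + 1) scale, Prc1 lay 1.15 above the mean of the other mitosis genes in Esr1 samples and 0.54 above it in CYP19A1 samples. Bub1b lay 0.18 above it in Esr1 samples and 0.36 below it in CYP19A1 samples, a relative value of -0.36. The differences between the lines, -0.60 for Prc1 and -0.55 for Bub1b, had the same sign in all 4 conditions, with ranges of -0.38 to -0.90 for Prc1 and -0.38 to -0.66 for Bub1b. Of the other 48 genes, the lowest difference was that of Mki67, at -0.31, whose sign differed between conditions, and the highest that of E2f1, at 0.42. The ranges of single libraries overlapped between the lines for each of the 50 genes, and this relative measure was not tested.

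The calls are summarised here by role, and the plot of group means by gene, which marks no calls, is ordered by role too. The genes at the entry to S phase (Ccne1, Ccne2 and E2f1) were called in 0 of the 16 comparisons, and the same held for Rrm1 and Tk1 of the nucleotide supply, for the mitotic kinase Aurka and for Ube2c, an enzyme of the anaphase-promoting complex. All 10 licensing and helicase genes were called together in 1 comparison, the CYP19A1 line with age. In Esr1 glands under letrozole 5 of the 10 fell (5.81% of all genes did), and 1 was higher in the CYP19A1 line at 18 months (0.895% of all genes were). Mki67, Top2a and Birc5 were lower in all of the 4 comparisons that gave most calls, as were Ccna2, Cdk1, Kif11, Melk, Pbk, Ttk and Uhrf1, 10 genes in all. Of the 2 transcription factors of mitotic genes, Mybl2 fell with age in CYP19A1 glands and Foxm1 fell under letrozole in Esr1 glands. Of these 4 comparisons 3 share the untreated 20-month Esr1 samples and 2 share the untreated 20-month CYP19A1 samples, so the counts are not independent.

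**Figure D5:**
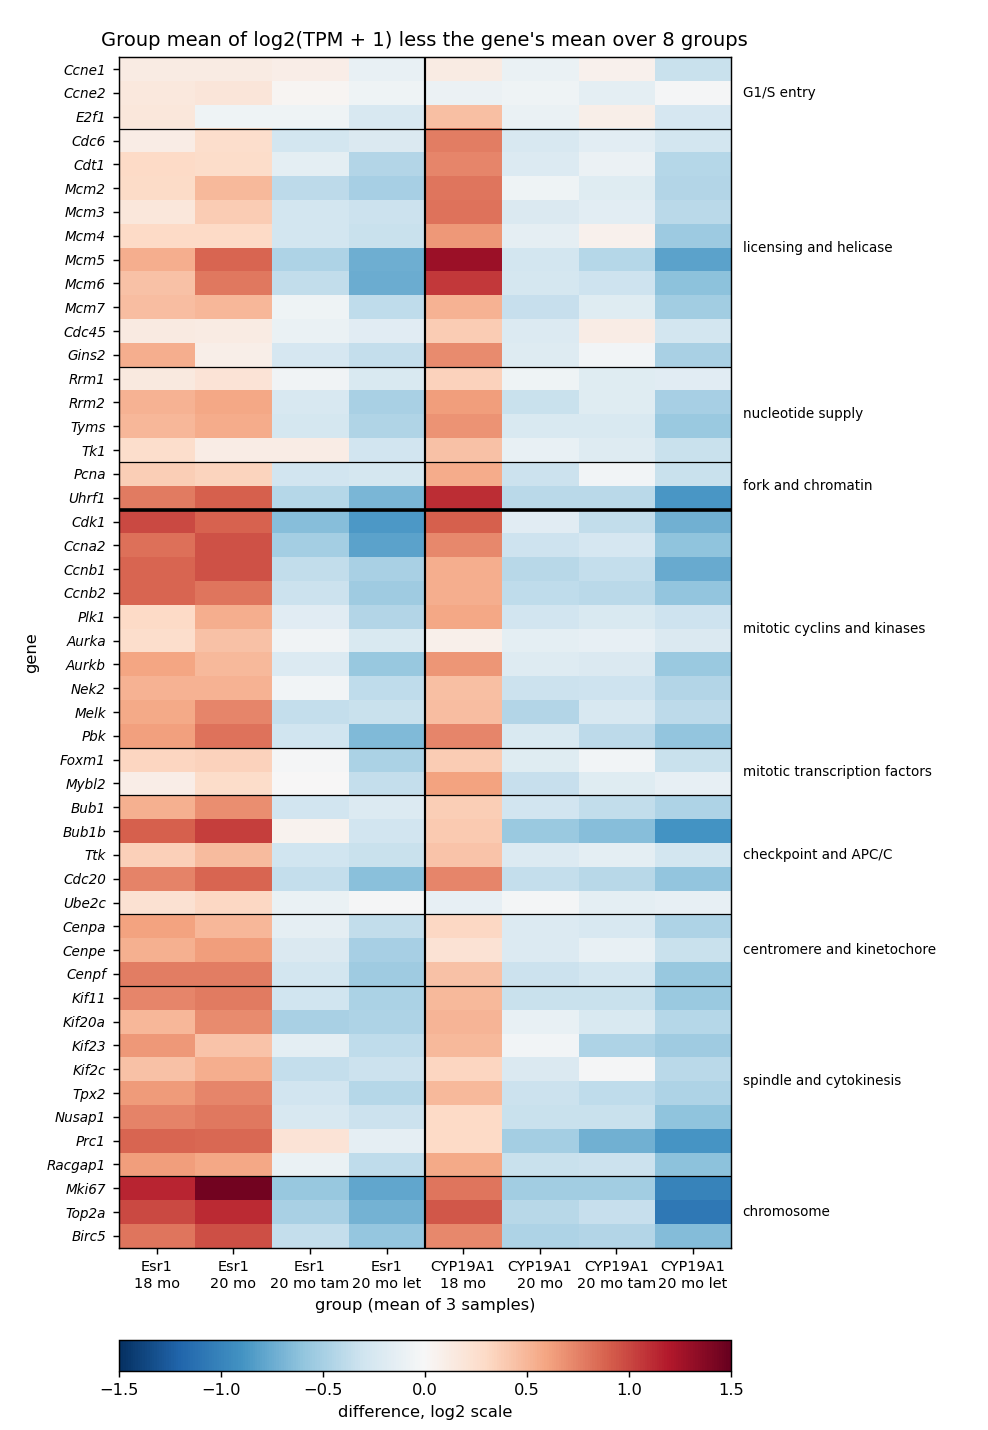
Group mean of log2(TPM + 1) for each of the 50 genes in the 8 groups, less the gene's own mean over the groups, ordered by role, with the replication genes above the thick line and the mitosis genes below it. Red (above the gene's mean) fills most rows in the columns of both 18-month groups and of the untreated Esr1 line at 20 months, Mki67 has the strongest colour, and Ccne1, Ccne2 and Ube2c the palest rows.

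Other genes of the pathway moved in the same comparisons. Of 34 further replication genes tested, 19 fell in CYP19A1 glands with age (6.45% of all genes did), 5 were lower in the CYP19A1 line at 20 months untreated (3.16%), 1 fell under tamoxifen (0.838%) and 10 under letrozole (5.81%) in Esr1 glands, and 0 rose in any of these 4 comparisons. Of 39 further mitosis genes tested the numbers lower were 18, 16, 11 and 30. Chaf1b, a subunit of the chromatin assembly factor that follows the fork, was lower in all 4, at -1.22 ± 0.25, -1.03 ± 0.25, -1.06 ± 0.25 and -1.26 ± 0.25 (adjusted p = 0.014, 0.021, 0.040 and 0.0064). Dut, which removes dUTP, had the smallest p of the replication list with age (-0.95 ± 0.19, adjusted p = 0.013), ahead of Hells, a chromatin remodeller (-1.33 ± 0.29), and Dtl, which marks Cdt1 for destruction (-1.23 ± 0.27). Clspn, a fork checkpoint protein, and Prim1, the primase, were lower at 20 months untreated (-0.85 ± 0.22 and -0.89 ± 0.24). Of the mitosis list, Spc25, a kinetochore protein, was lower between the lines at 20 months untreated (-1.13 ± 0.19, adjusted p = 0.0017), under tamoxifen (-0.96 ± 0.19, adjusted p = 0.021) and under letrozole in Esr1 glands (-1.06 ± 0.19, adjusted p = 0.0045). Cks1b (-0.97 ± 0.19) and Smc2, a condensin subunit (-0.83 ± 0.19), fell with age in CYP19A1 glands. Ndc80, another kinetochore protein, and Hmmr, a spindle protein, fell under tamoxifen in Esr1 glands (-0.999 ± 0.218 and -1.18 ± 0.26). Cep55 (-1.06 ± 0.20) and Cks2 (-1.45 ± 0.29) fell under letrozole there.

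Genes that set the decision to divide were read as a list of their own. Of 15 tested genes of G1 control, 4 fell in CYP19A1 glands with age, where 6.45% of all genes did: the pocket protein gene Rbl1 (-0.82 ± 0.19), Cdk2 (-0.54 ± 0.15), the cyclin D1 gene Ccnd1 (-1.1 ± 0.31, adjusted p = 0.035) and Ccnd3 (-0.50 ± 0.14). Under letrozole in Esr1 glands 2 of the 15, Cdk4 (-0.98 ± 0.23) and Cdk6 (-0.91 ± 0.26), fell, where 5.81% of all genes did. Ccnd1 measured 54.3, 37.9 and 22.3 TPM in CYP19A1 samples at 18 months and 17.0, 18.9 and 13.3 TPM at 20 months, and did not overlap. In untreated Esr1 samples it measured 16.9, 23.7 and 30.3 TPM at 18 months and 20.8, 21.0 and 31.5 TPM at 20 months, which overlapped, and it passed in no other comparison. Cdkn1a, the gene of the inhibitor p21, passed in 0 of the 16 comparisons and stood at 28.2 TPM in Esr1 18-month replicate 1 and at 10.3 TPM or less in the other libraries. Cdkn2a, the gene of the inhibitors p16 and p19, stood at 1.12 TPM or less in every sample and was too low to test. Of the 7 other E2F family genes 1 passed: E2f6, a repressor, rose in CYP19A1 glands with age (0.76 ± 0.22, adjusted p = 0.037) and in Esr1 glands under letrozole (0.74 ± 0.22, adjusted p = 0.042). Of all genes tested 3.01% and 2.85% rose in these comparisons.

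The summed level of 66 replication-dependent histone genes, whose transcripts are made in S phase, was high in the same 3 groups as the 50 genes. It was 1259 ± 235 TPM (SD, n = 3) in Esr1 glands at 18 months, 1214 ± 163 TPM untreated at 20 months, 630 ± 125 TPM under tamoxifen and 528 ± 54.1 TPM under letrozole. In CYP19A1 glands it was 1343 ± 437, 596 ± 78.3, 716 ± 69.8 and 475 ± 78.7 TPM in the same order. The highest library was CYP19A1 18-month replicate 1 at 1723 TPM, the library highest for 17 of the 19 replication genes. Histone genes have near-identical copies, between which reads can be split, so the sum is given in place of single genes.

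Pttg1, the gene of securin, which holds separase inactive until anaphase, was the 1 gene of the mitosis list that rose under letrozole in Esr1 glands, where 30 fell. It measured 1.57, 3.37 and 15.3 TPM in Esr1 samples under tamoxifen and 17.6, 16.4 and 14.8 TPM under letrozole, against 5.51, 6.35 and 5.40 TPM untreated at 20 months and 3.85, 5.16 and 9.44 TPM at 18 months. In the 12 CYP19A1 samples it was between 1.77 and 5.49 TPM. Thus 4 Esr1 libraries stood apart from the other 20. Pttg1 rose under letrozole in Esr1 glands (1.36 ± 0.41, adjusted p = 0.046) and was lower in CYP19A1 than in Esr1 glands under letrozole (-2.54 ± 0.41, adjusted p = 0.0017) and averaged over the conditions (-1.08 ± 0.21, adjusted p = 0.0019).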

How the data were processed

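RNA-seq of mouse mammary gland gave 24 samples in 8 groups of 3, grouped by their labels, which call the 3 of a group biological replicates. The libraries were of stranded, rRNA-depleted total RNA, per the labels' protocols. The authors deposited TPM values per gene. Tools listed in the submitters' processing notes are RSEM 1.3.1, STAR 2.7.9a, FastQC 0.11.9 and Trim Galore 0.6.5, with the build mm10 and no roles. TPM is scaled within each sample and keeps no depth, so precision was read from the spread of 3 samples.

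From the TPM values, log2(TPM + 1) was computed for 19325 of 55487 genes, those reaching 1 TPM in 3 samples or more. One limma fit (limma 3.58.1, R 4.3.3, trend and robust options) held the 8 group means, and 16 comparisons were each adjusted over all tested genes by the Benjamini-Hochberg method. Every adjusted p is from this fit, "passed" means under 0.05, and the code was tested on simulated data. No pairing was used.

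Genes named with values were Mki67, Top2a, Cdk1, Mcm5, Pcna and Ccne1 throughout, up to 4 of each class with the smallest p in each comparison with a call, up to 4 per wider list and comparison, and Ccnd1, Cdkn1a and Cdkn2a. Others named beside a count (such as Gins2, Pttg1 and the genes in lists of calls) were chosen after their values were seen. The members and lists were chosen with earlier results of these data known.

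Alternatives were the pseudocount, the filter, 2 scalings, a replicate block, covariates from marker lists, fits of the compared groups only, and each sample left out in turn.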

Additional observations from a re-analysis of the deposited data

How the results depend on the processing

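The counts of the 50 genes depended on the settings more than the directions did, and no named gene or count reversed. With no filter on low values the counts were 14 between the lines at 20 months untreated, 15 with age in the CYP19A1 line and 8 under tamoxifen in the Esr1 line. Median-ratio scaling gave 15 with age in the CYP19A1 line, 33 under tamoxifen and 8 for the lines averaged, and rescaling without genes above 1000 TPM gave 13, 27 and 9 and 0 at 18 months. A pseudocount of 0.1 TPM gave 0 at 18 months. Muscle and epithelium covariates gave 8 for the lines averaged, 26 under tamoxifen and 0 under letrozole in the Esr1 line, and 11, 12 and 2 for the line differences in age, tamoxifen and letrozole effects. A lymphocyte covariate gave 5 between the lines at 20 months untreated, 2 with age in the CYP19A1 line and 20 under letrozole in the Esr1 line. Fitting only the compared groups gave 0 at 18 months, 3 with age in the CYP19A1 line, 1 under tamoxifen and 2 for the line difference in the letrozole effect. The cause of these changes was not tested. Shares of all genes called are given for the main fit only, so counts in other settings are not set against them.

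Leaving out each sample in turn gave 0 to 1 at 18 months, 4 to 23 between the lines at 20 months untreated, 3 to 12 for the lines averaged, 0 to 37 with age in the CYP19A1 line, 0 to 21 under tamoxifen and 13 to 35 under letrozole in the Esr1 line, 0 to 5 for the line difference in the age effect, and 0 in the others. Replicate numbers did not pair the samples: deviations of same-numbered samples correlated with r between -0.413 and 0.296 (19 of 84 pairs over 0.1), and 8 of 24 libraries correlated best with their own number. With the replicate number as a block the counts were 0 at 18 months and 9 under tamoxifen in the Esr1 line, and within 1.5 times in the other comparisons. Read depth is unknown, and 13 of the 50 genes were under 1 TPM in more than 12 of the 24 libraries, where the pseudocount shrinks a difference most.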
